A study of Mus musculus with 6 samples.

Results

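Expression of 10 marker genes of cardiac macrophages was followed in RNA-seq of mouse heart tissue. The genes were taken by symbol from the 54532 genes of the deposited table, and all 10 were found there once. P2ry12 was selected on its lower level in the Mc4r KO hearts of these same libraries, so its values are given as a description with no test. The other 9 genes, Csf1r, Cd68, Adgre1, Mrc1, Lyve1, Cd163, C1qa, C1qb and C1qc, were added to set P2ry12 against the macrophage RNA of each heart. The hearts came from 3 WT mice and 3 homozygous Mc4r KO mice. All were male littermates of 12 weeks on the C57B/6/N background, bred from heterozygous parents, with 1 library per mouse. Such mice lack Mc4r in every tissue, so effects that start in the heart and those that start in another organ cannot be told apart. The tissue is heart in the tissue labels, whereas the sample titles say muscle and the discussion of the study says left ventricle.

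Macrophages are resident cells of the healthy heart, where they lie between the cardiomyocytes, clear debris and dying cells, and take part in repair and electrical conduction. Many of the resident cells are seeded before birth and renew themselves through the growth factor receptor CSF1R, and others are replaced from blood monocytes. P2RY12 is a Gi-coupled receptor for ADP that is best known from platelets, where it is the target of clopidogrel, and from microglia, the macrophages of the brain, where it guides the processes of the cell toward ADP from damaged tissue. The other genes mark macrophages in different ways. Csf1r, Cd68 and Adgre1 are broad markers, Mrc1, Lyve1 and Cd163 mark resident scavenging cells, and C1qa, C1qb and C1qc encode the 3 chains of complement C1q, which in most tissues is made by macrophages.

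The promoters of P2ry12, C1qb and Cd163 are shown because P2ry12 was chosen for its lower level in Mc4r KO hearts, while the means of C1qb and Cd163 were higher there without passing the test. Each is the 150 bases before the RefSeq start site on build GRCm38.p6, from 5′ to 3′ on the strand of the gene. Capitals mark GAGGAA, the core of the site bound by PU.1, the master transcription factor of macrophages.
P2ry12, chr3:59262986-59263135, minus strand: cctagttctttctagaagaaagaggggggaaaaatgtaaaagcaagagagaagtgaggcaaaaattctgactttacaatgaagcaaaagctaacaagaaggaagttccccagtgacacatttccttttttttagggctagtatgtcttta
C1qb, chr4:136886201-136886350, minus strand: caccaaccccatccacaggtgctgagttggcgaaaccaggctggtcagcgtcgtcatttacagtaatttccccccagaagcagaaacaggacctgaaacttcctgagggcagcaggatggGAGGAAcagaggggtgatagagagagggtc
Cd163, chr6:124304501-124304650, plus strand: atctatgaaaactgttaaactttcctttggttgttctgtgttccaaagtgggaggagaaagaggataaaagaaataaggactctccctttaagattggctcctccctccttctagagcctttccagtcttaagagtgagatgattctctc
Promoters of 6 of the 10 genes were matched by symbol, those of P2ry12, Cd68, C1qb, C1qc, Mrc1 and Cd163. In the 250 bases before the start site, GAGGAA on either strand was found for Cd68, C1qb, C1qc and Mrc1, and was not in the window of P2ry12 or Cd163. These letters occur in 23.3% of 32851 promoters of this length. The longer form GAGGAAGT, which contains these letters and occurs in 2.44% of the promoters, was found on the reverse strand of the C1qc promoter alone among the 6. The GC content of the same 250 bases was 41.6% for P2ry12, 36.8% for Cd163 and 55.2% for C1qb. A match is only a match of letters, and its absence says nothing of the factor.

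Values are FPKM, a read level scaled to gene length and to a factor of each library. The deposited values had the same median-of-ratios factor in all 6 libraries, so they were already scaled between libraries. Levels can be compared between genes because of the scaling to length. Between 14691076 and 16047003 reads fell on genes in each library. The share of these reads on the mitochondrial chromosome was 34.9% and 32.6% in WT replicates 1 and 2, 26.3% in WT replicate 3 and 23.3% to 25.8% in the Mc4r KO libraries. Weighted by reads, the mean GC content of the longest transcripts of nuclear genes was 49.6% and 49.9% in WT replicates 1 and 2. It was 50.3% in WT replicate 3 and 50.5% in each Mc4r KO library. This value rests on the transcript sequences of the annotation and not on the sequenced reads. WT replicate 3 stood apart from its group. It correlated more closely with Mc4r KO replicate 1 (Pearson r = 0.962 over 11297 genes) than with WT replicates 1 and 2 (r = 0.946 and 0.952), and it had the highest summed levels of red cell, neutrophil and atrial markers. Mc4r had 2 reads in WT replicate 3 and none in the other 5 libraries, which is too few to check the genotype. With limma on log2(FPKM + 0.1), 83 of 18035 genes tested (0.46%) passed an adjusted p under 0.05 with a log2 fold change above 0.75 in either direction, and over all of them the log2 fold change had a median of -0.01.

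P2ry12 (ENSMUSG00000036353) lies on the minus strand of chromosome 3 at 59216272 to 59262871 of mm10, and was the lowest of the 10 genes in all 6 libraries. Its level was 1.53, 1.12 and 1.22 FPKM in WT replicates 1, 2 and 3 and 0.405, 0.362 and 0.514 FPKM in Mc4r KO replicates 1, 2 and 3. These levels rest on 55, 41 and 53 reads in the WT libraries and on 16, 14 and 21 reads in the Mc4r KO libraries. The groups did not overlap, and the lowest WT level was above the highest Mc4r KO level. The exact Poisson intervals at 95% cover counting error only, and are in reads, which are not scaled between libraries. In reads they touched for 1 pair, with 29.4 to 55.6 in WT replicate 2 and 13 to 32.1 in Mc4r KO replicate 3. For P2ry12, 3 reads stood for 0.0820 FPKM in WT replicate 2 and 0.0734 FPKM in Mc4r KO replicate 3, so this touching does not carry over directly to FPKM. The mean was 1.29 ± 0.214 FPKM in WT and 0.427 ± 0.0785 FPKM in Mc4r KO hearts (SD, n = 3 each), which is 3.03-fold lower. The log2 fold change was -1.40 with a standard error of 0.21, and 1.61% of the genes tested had a smaller ratio of Mc4r KO to WT. On the other strand, exons of Med12l cover 0.35% of the exonic bases of P2ry12. In RNA of whole tissue, fewer cells of a type and less RNA of a gene in each cell cannot be told apart.

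**Figure D1:**
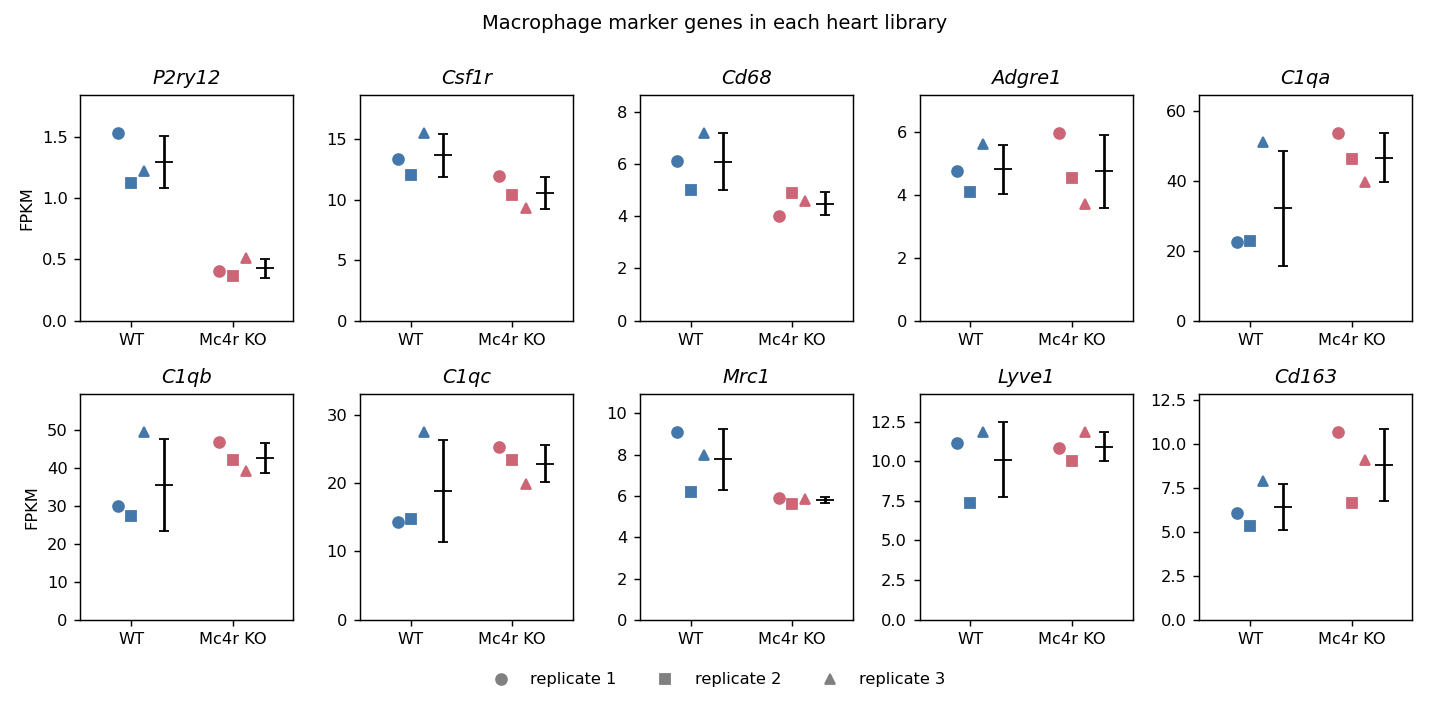
Level of each of the 10 macrophage marker genes in FPKM (y axis, from 0, with its own scale in each panel) in WT (blue) and Mc4r KO (red) hearts. Each symbol is 1 library, with its shape giving the replicate, and the black bars give the mean and SD of 3 libraries. P2ry12 sits between 1.12 and 1.53 FPKM in WT and between 0.362 and 0.514 FPKM in Mc4r KO hearts, while for the 3 C1q genes WT replicate 3 sits with the Mc4r KO libraries.

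Of the other 9 genes, none passed the limma call. An unadjusted p under 0.05 was reached by 3 of them, and by 3761 of all 18035 genes tested. Voom, the other tool run, called none of the 9 either. The adjusted p ranged from 0.183 to 0.942. The fold changes went both ways, with 5 positive and 4 negative values and a median log2 fold change of 0.14. Csf1r, Cd68 and Mrc1 were lower in every Mc4r KO library than in every WT library, none was higher in every one, and the other 6 overlapped. Over all genes tested, 26.4% had groups that did not overlap, 12.4% lower and 14.1% higher in Mc4r KO.

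Among the broad markers, Csf1r, the receptor through which macrophages receive their main growth and survival signal, had 13.4, 12.1 and 15.6 FPKM in WT replicates 1, 2 and 3 and 11.9, 10.4 and 9.31 FPKM in Mc4r KO replicates 1, 2 and 3. The groups lay side by side, with 11.9 FPKM as the highest Mc4r KO level and 12.1 FPKM as the lowest WT level. The log2 fold change was -0.37 (SE 0.13), with an adjusted p of 0.183. In GENCODE M21, exons of Hmgxb3 on the other strand cover 15.1% of the 5774 exonic bases of Csf1r. The deposited length of Csf1r is 4885 bases, so the gene model that was counted differs and may lack this overlap. If the overlap was counted, a part of these reads may come from either gene. Cd68, a glycoprotein of the late endosomes and lysosomes of phagocytes, had 6.09, 4.98 and 7.19 FPKM in WT and 3.998, 4.87 and 4.56 FPKM in Mc4r KO replicates 1, 2 and 3. WT replicate 2 was only slightly above the highest Mc4r KO library. The log2 fold change of Cd68 was -0.42 (SE 0.15, adjusted p = 0.186). Adgre1, which encodes the surface protein F4/80, had 4.75, 4.09 and 5.62 FPKM in WT and 5.99, 4.55 and 3.72 FPKM in Mc4r KO replicates 1, 2 and 3. Both the highest and the lowest library were Mc4r KO hearts, and the log2 fold change was -0.03 (SE 0.20, adjusted p = 0.942). The 3 broad markers therefore had small negative estimates of unequal size, none of which passed the test.

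Among the scavenger genes, Mrc1, the mannose receptor CD206, had 9.11, 6.21 and 7.98 FPKM in WT and 5.92, 5.63 and 5.87 FPKM in Mc4r KO replicates 1, 2 and 3. The WT libraries spread widely while the Mc4r KO libraries were nearly equal, with SDs of 1.46 and 0.153 FPKM. The log2 fold change was -0.40 (SE 0.14, adjusted p = 0.190). Lyve1, a hyaluronan receptor shared by resident macrophages and lymphatic endothelium, had 11.1, 7.37 and 11.8 FPKM in WT and 10.8, 10.03 and 11.9 FPKM in Mc4r KO replicates 1, 2 and 3. Apart from the low WT replicate 2 the libraries were close to each other, and the log2 fold change was 0.14 (SE 0.18, adjusted p = 0.712). Of 5 lymphatic markers tested, none was called, and their median log2 fold change was 0.15. Estimates were positive for 4 of them, and Prox1, the transcription factor that sets lymphatic identity, was at -0.42 (adjusted p = 0.123). Cd163, the receptor that takes up haemoglobin bound to haptoglobin, had 6.08, 5.34 and 7.87 FPKM in WT and 10.7, 6.64 and 9.07 FPKM in Mc4r KO replicates 1, 2 and 3. The groups overlapped, with WT replicate 3 above Mc4r KO replicate 2, and the log2 fold change was 0.44 (SE 0.21, adjusted p = 0.282). Cd163 and Mrc1, often used together for the same cells, thus had estimates of opposite sign. The ratio of Cd163 to Mrc1 was 0.667, 0.861 and 0.986 in WT and 1.81, 1.18 and 1.55 in Mc4r KO replicates 1, 2 and 3, with no overlap.

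The 3 C1q genes stand next to each other on the minus strand of chromosome 4, with C1qb at 136880129 to 136886187, C1qc at 136889804 to 136893065 and C1qa at 136895917 to 136898803. C1qa had 22.6, 22.7 and 51.2 FPKM in WT and 53.8, 46.2 and 39.7 FPKM in Mc4r KO replicates 1, 2 and 3. C1qb had 30.0, 27.4 and 49.6 FPKM in WT and 47.0, 42.0 and 39.1 FPKM in Mc4r KO replicates 1, 2 and 3. C1qc had 14.3, 14.8 and 27.5 FPKM in WT and 25.3, 23.3 and 19.9 FPKM in Mc4r KO replicates 1, 2 and 3. In all 3 genes WT replicates 1 and 2 were the lowest libraries, and WT replicate 3 lay within or above the range of the Mc4r KO libraries. The log2 fold changes were 0.63 (SE 0.31, adjusted p = 0.303) for C1qa, 0.31 (SE 0.22, adjusted p = 0.469) for C1qb and 0.34 (SE 0.25, adjusted p = 0.493) for C1qc. The 3 genes of this locus are not independent measurements. The ratio of C1qc to C1qb was steady, from 0.476 to 0.555 over the 6 libraries. That of C1qa to C1qb was 0.755, 0.829 and 1.03 in WT and 1.14, 1.10 and 1.02 in Mc4r KO replicates 1, 2 and 3, again with WT replicates 1 and 2 below the other 4 libraries.

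WT replicate 3 weighed strongly on the C1q estimates. It exceeded the mean of WT replicates 1 and 2 by 2.26 times for C1qa, 1.73 times for C1qb and 1.89 times for C1qc, much as the mean of the Mc4r KO hearts did, by 2.05, 1.49 and 1.57 times. Without this library C1qa passed the call, with a log2 fold change of 1.02 and an adjusted p of 0.0129. C1qb and C1qc then had log2 fold changes of 0.57 and 0.64 (adjusted p = 0.0252 and 0.0262), under the fold limit. The same fit called 726 of 17966 genes tested, against 83 of 18035 with all 6 libraries, so the rise in calls was not particular to C1q. The 4 libraries with high C1q levels were also those with a mitochondrial share of at most 26.3%. Their read-weighted transcript GC content was at least 50.3%, above that of WT replicates 1 and 2. With the mitochondrial share as a covariate the log2 fold changes were -0.31 for C1qa, -0.31 for C1qb and -0.39 for C1qc. The sign of the C1q difference thus depended on this term, and with 2 WT libraries at a high share and no Mc4r KO library there, share and genotype cannot be told apart.

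**Figure D2:**
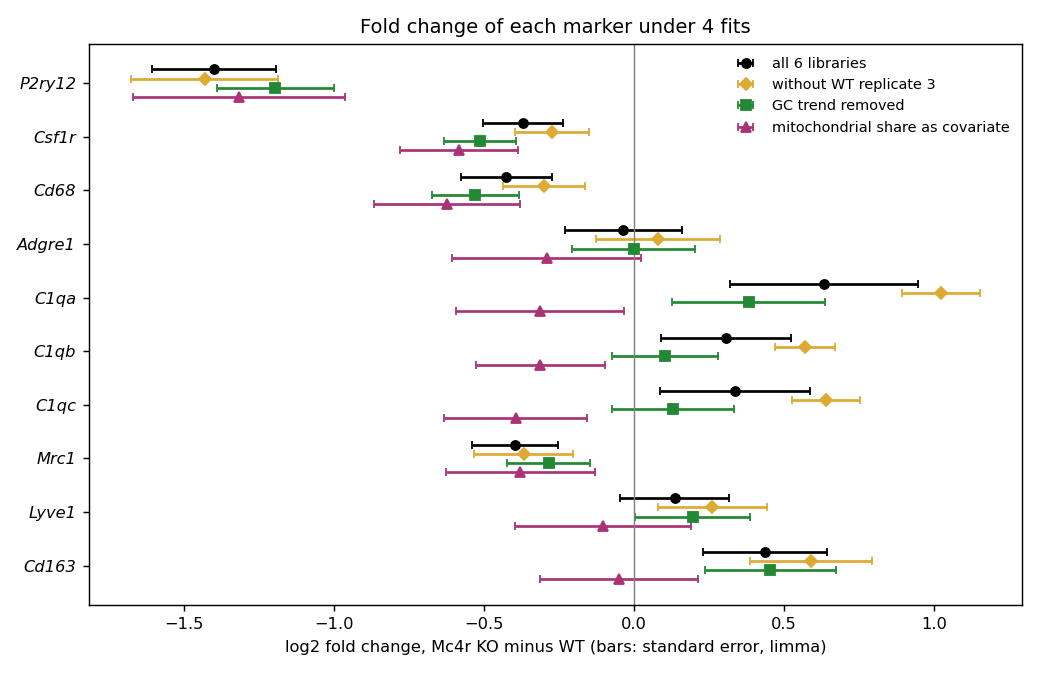
The log2 fold change (x axis, Mc4r KO minus WT) of the 10 macrophage marker genes (y axis), as estimates with their standard errors from 4 limma fits. P2ry12 stays between -1.43 and -1.20 in these fits, while C1qa goes from 1.02 without WT replicate 3 to -0.31 with the mitochondrial share as a covariate.

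The transcripts of the markers span a wide range of GC content, which the rule for choosing them did not use. It was 38.6% for P2ry12, the lowest of the 10, and 43.4% for Mrc1, against a median of 49.5% for all genes tested. It was 59.5% for C1qa, 57.4% for C1qb and 57.5% for C1qc, the highest of the 10. The extremes of GC content were therefore also the extremes of the fold change, P2ry12 at the low end and C1qa at the high end. Over all genes with a mean of at least 1 FPKM, the median log2 fold change was -0.14 for 2155 genes of 40 to 45% GC and 0.18 for 2087 genes of 55 to 60% GC. The same medians for WT replicate 3 against WT replicates 1 and 2 were -0.17 and 0.20. The C1q genes had larger differences than these medians and P2ry12 a GC content below the lowest of these bins. Csf1r and Cd68 had 54.5% and 52.9% GC, and the median of genes of 50 to 55% GC was 0.09. With the GC trend of each library removed, the log2 fold change was -1.20 for P2ry12, -0.51 for Csf1r, -0.53 for Cd68, -0.28 for Mrc1 and 0.38 for C1qa. None of the 9 tested markers was called in that fit. The part of GC content in the differences of single markers was not tested.

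**Figure D3:**
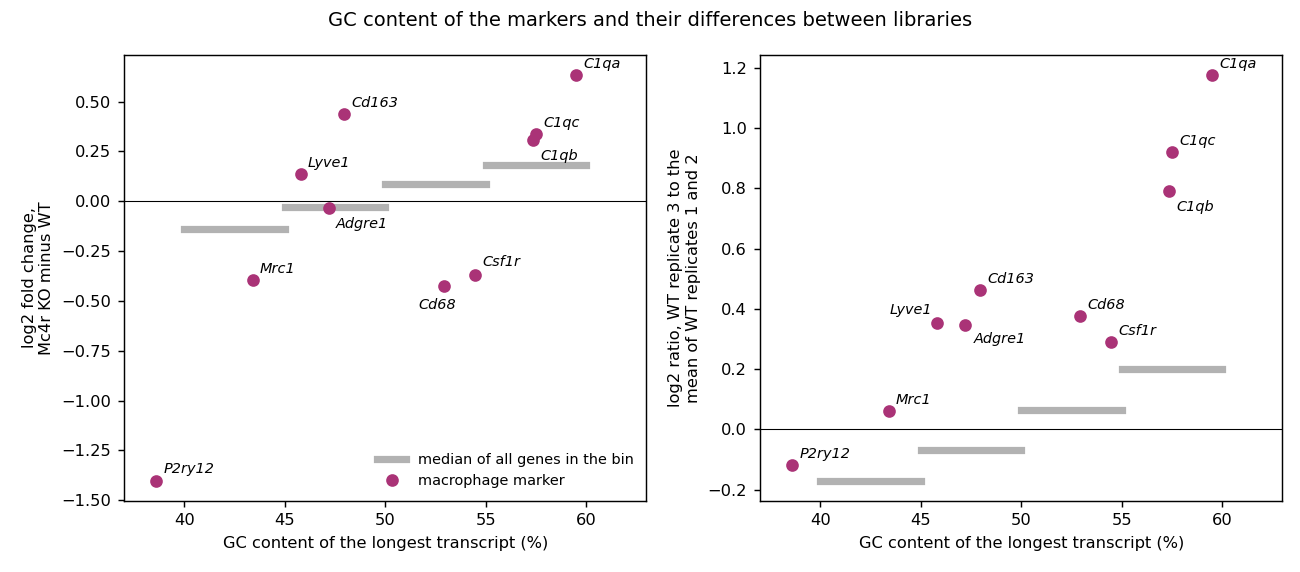
Differences of the 10 macrophage marker genes (points) against the GC content of the longest transcript in percent (x axis). The left panel shows the log2 fold change of Mc4r KO against WT and the right panel the log2 ratio of WT replicate 3 to the mean of WT replicates 1 and 2, with grey bars for the median of all genes of at least 1 FPKM in each GC bin, which run from -0.14 to 0.18 and from -0.17 to 0.20. The C1q genes are at the upper right of both panels, and P2ry12 is at the lower left of both.

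Set against the other markers, P2ry12 remained lower in each Mc4r KO heart. As a percentage of Csf1r it was 11.5, 9.29 and 7.86 in WT and 3.39, 3.48 and 5.52 in Mc4r KO replicates 1, 2 and 3. As a percentage of Mrc1, the marker nearest to it in GC content, it was 16.8, 18.1 and 15.3 in WT and 6.84, 6.43 and 8.76 in Mc4r KO replicates 1, 2 and 3. Neither ratio overlapped between the groups, nor did the ratio to any of the other 7 markers. The summed level of Csf1r, Cd68, Adgre1, Mrc1, Lyve1 and Cd163 was 50.5, 40.1 and 56.0 FPKM in WT and 49.4, 42.1 and 44.4 FPKM in Mc4r KO replicates 1, 2 and 3, which overlapped. P2ry12 was 2.67 ± 0.439% of that sum in WT and 0.946 ± 0.185% in Mc4r KO hearts (SD, n = 3 each). These ratios carry the choice of P2ry12 on this contrast and are no separate evidence of it.

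**Figure D4:**
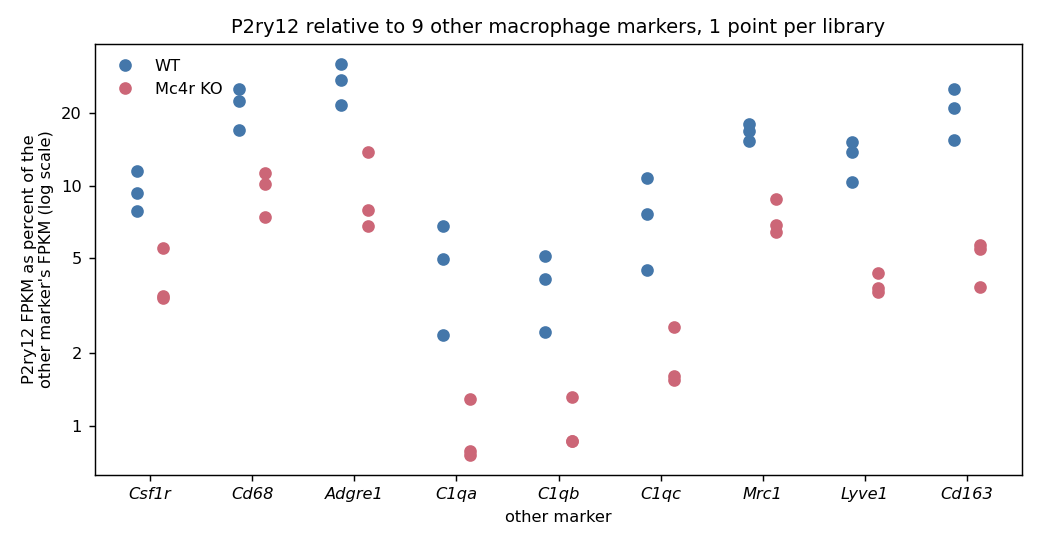
P2ry12 FPKM as a percentage of the FPKM of each of the 9 other macrophage markers (x axis) on a log scale (y axis), with 1 point per library for WT (blue) and Mc4r KO (red). Every WT point lies above every Mc4r KO point for each marker, as with Csf1r, at 7.86% to 11.5% in WT and 3.39% to 5.52% in Mc4r KO hearts.

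The C1q genes, in turn, were higher relative to Csf1r in the Mc4r KO hearts. The summed level of the 3 genes was 66.9, 64.9 and 128 FPKM in WT and 126, 112 and 98.7 FPKM in Mc4r KO replicates 1, 2 and 3, which overlapped. Divided by Csf1r, this sum was 5.004, 5.37 and 8.25 in WT and 10.6, 10.7 and 10.6 in Mc4r KO replicates 1, 2 and 3. All 3 Mc4r KO hearts were nearly equal in this ratio, and all lay above WT replicate 3. Csf1r, the divisor, was itself lower in every Mc4r KO library, and the sign of the C1q difference depended on the mitochondrial share. The part of each in this ratio was not tested.

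The order of the mean levels was much the same in both groups. In WT it ran C1qb (35.7 FPKM), C1qa (32.2), C1qc (18.9), Csf1r (13.7), Lyve1 (10.1), Mrc1 (7.76), Cd163 (6.43), Cd68 (6.09), Adgre1 (4.82) and P2ry12 (1.29). Neighbours overlapped across libraries except Csf1r with Lyve1 and Adgre1 with P2ry12. Within each WT library, however, C1qa, C1qc, Csf1r, Lyve1 and Mrc1 kept this order. In Mc4r KO hearts it ran C1qa (46.6 FPKM), C1qb (42.7), C1qc (22.8), Lyve1 (10.9), Csf1r (10.6), Cd163 (8.80), Mrc1 (5.81), Adgre1 (4.75), Cd68 (4.48) and P2ry12 (0.427). Here the steps from C1qb to C1qc, from C1qc to Lyve1, from Cd163 to Mrc1 and from Cd68 to P2ry12 were free of overlap, and the other neighbours overlapped. Within libraries, Csf1r was above Lyve1 in Mc4r KO replicates 1 and 2, and Cd68 above Adgre1 in replicates 2 and 3.

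Other genes of the same cells were read from fixed lists of markers. Counts of genes at an unadjusted p under 0.05 in these and later lists stand beside 3761 of 18035 over all genes tested. Of 20 pan-macrophage genes, such as Spi1, which encodes PU.1, and the lysosomal protease gene Ctss, none was called by limma or by voom and 4 had an unadjusted p under 0.05. The median log2 fold change of the list was -0.03, and its summed level was 192 to 266 FPKM in WT and 211 to 270 FPKM in Mc4r KO hearts. A large part of this sum came from Lyz2, named after its values were seen, with 101 to 141 FPKM in WT and 117 to 150 FPKM in Mc4r KO hearts. The lowest fold change was that of Trem2, a lipid-sensing receptor, at -0.66 (adjusted p = 0.226), and the highest that of Cd14, the co-receptor for bacterial lipopolysaccharide, at 0.79 (adjusted p = 0.197). Of 17 resident macrophage genes tested out of 19, none was called, 5 had an unadjusted p under 0.05 and 15 had a negative estimate, with a median log2 fold change of -0.38. The summed level of this list was 228 to 274 FPKM in WT and 183 to 217 FPKM in Mc4r KO hearts. That these sums did not overlap rested on Selenop, the most abundant gene of the list, since without it they were 136, 119 and 161 FPKM in WT and 127, 107 and 117 FPKM in Mc4r KO replicates 1, 2 and 3. Igf1, a growth factor that resident macrophages and fibroblasts make, had 2.16, 1.55 and 2.05 FPKM in WT and 1.09, 0.904 and 1.01 FPKM in Mc4r KO replicates 1, 2 and 3 (log2 fold change -0.86, adjusted p = 0.0744). Voom called Igf1 alone in this list. Ccl24, an eosinophil-attracting chemokine, had 2.08, 1.29 and 1.81 FPKM in WT and 0.846, 0.762 and 0.722 FPKM in Mc4r KO replicates 1, 2 and 3 (log2 fold change -1.04, adjusted p = 0.0719). Selenop, the plasma carrier of selenium, had a log2 fold change of -0.50 (adjusted p = 0.0696), and 15.5% of its exonic bases are covered by Ccdc152 on the other strand. Igf1, Ccl24 and Selenop lie outside the rule for named genes and were chosen after their values were seen. They are the 3 of 17 tested genes of the list without overlap between the groups, all lower in Mc4r KO. Over all genes tested, 12.4% were lower in Mc4r KO without overlap. The lowest fold change of the list was that of Cd209f, a lectin gene with few reads (log2 fold change -1.36, adjusted p = 0.260).

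Of 15 genes of monocyte-derived and MHC class II macrophages none was called and 1 had an unadjusted p under 0.05. The median log2 fold change was -0.09, and the summed level was 151 to 252 FPKM in WT and 105 to 315 FPKM in Mc4r KO hearts. The monocyte chemokine receptor gene Ccr2 was highest, with a log2 fold change of 0.45 (adjusted p = 0.627), and Cd209a was lowest, with -1.31 (adjusted p = 0.225). Of 9 genes tested from the microglial signature, to which P2ry12 belongs in the brain, none was called, 3 had an unadjusted p under 0.05, and the median log2 fold change was -0.06. Sall1, a transcription factor of microglia, was at the low end with 0.471, 0.383 and 0.457 FPKM in WT and 0.220, 0 and 0.213 FPKM in Mc4r KO replicates 1, 2 and 3 (log2 fold change -1.31, adjusted p = 0.205). At the high end was Fcrls, with 0.32 (adjusted p = 0.541).

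P2ry12 is also a platelet gene, and platelet RNA can reach a heart library with blood. Of 12 platelet markers 9 were tested and none was called, and Gp1bb was at 0 in all libraries. Their summed level was 30.7, 18.4 and 33.8 FPKM in WT and 22.5, 18.1 and 14.3 FPKM in Mc4r KO replicates 1, 2 and 3, with a median log2 fold change of -0.38. Most of this sum came from Pf4, named after its values were seen, which is also in the resident macrophage list, with 20.2, 14.1 and 22.8 FPKM in WT and 14.8, 11.05 and 11.2 FPKM in Mc4r KO replicates 1, 2 and 3. The part of platelet RNA in the P2ry12 values was not tested. Tubb1, the platelet tubulin, had a log2 fold change of -0.75 (adjusted p = 0.486) and Gp9, a subunit of the von Willebrand factor receptor, one of 0.21 (adjusted p = 0.935). Red cell markers had a summed level of 4497, 859 and 6344 FPKM in WT and 1651, 663 and 620 FPKM in Mc4r KO replicates 1, 2 and 3, so the amount of blood RNA differed between hearts of the same group by several times. Its part in the values of the macrophage markers was not tested.

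**Figure D5:**
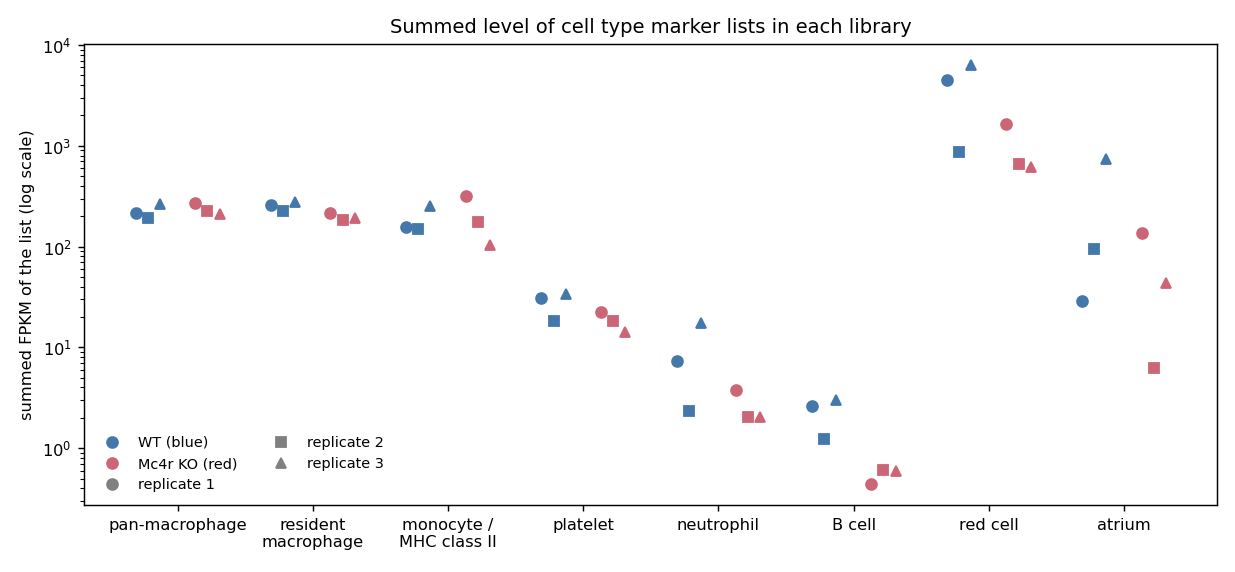
Summed FPKM (y axis, log scale) of the genes of 8 cell type marker lists (x axis) in each library of WT (blue) and Mc4r KO (red) hearts, with the shape giving the replicate. The pan-macrophage sums lie close together, at 192 to 270 FPKM. Those of the monocyte-derived and MHC class II list run from 105 to 315 FPKM, red cell sums from 620 to 6344 FPKM and atrial sums from 6.29 to 747 FPKM.

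Of 21 other genes of purinergic signalling tested out of 24, which cover receptors for ATP, ADP and adenosine, the enzymes that turn one into the next, and Gi subunits, none was called, 6 had an unadjusted p under 0.05 and the median log2 fold change was -0.02. The highest was Adora1, the Gi-coupled adenosine receptor that slows the heart, with 1.62, 2.20 and 2.10 FPKM in WT and 4.62, 3.30 and 4.31 FPKM in Mc4r KO replicates 1, 2 and 3 (log2 fold change 1.01, adjusted p = 0.0579). Voom called Adora1 and no other gene of this list. Exons of Mybph on the other strand cover 20.1% of its exonic bases. The lowest was the lymphocyte receptor gene P2ry10, with a log2 fold change of -0.82 (adjusted p = 0.425). Within 250 kb of P2ry12 the table held 18 other genes, of which 5 were tested and none was called. P2ry14 and P2ry13, receptors of the same family beside P2ry12, had log2 fold changes of -0.55 (adjusted p = 0.266) and -0.53 (adjusted p = 0.394). Med12l, which surrounds P2ry12 on the other strand, had one of -0.30 (adjusted p = 0.572), Igsf10 one of -0.25 (adjusted p = 0.703) and the pseudogene Rpl13-ps6 one of 0.63 (adjusted p = 0.423).

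Of 15 complement genes tested out of 17 beside C1q, none was called by limma, 4 had an unadjusted p under 0.05 and the median log2 fold change was -0.02. Cd59a, which protects cells from the terminal complement complex, was highest, with 36.4, 33.9 and 38.0 FPKM in WT and 57.5, 54.6 and 59.1 FPKM in Mc4r KO replicates 1, 2 and 3. Its log2 fold change of 0.66 had an adjusted p of 0.0355 but was under the fold limit. The lowest was Cfd, the adipocyte protease adipsin, which was under 1 FPKM in every library and at 0 in Mc4r KO replicates 2 and 3 (adjusted p = 0.10). C7 and C4b are named after their values were seen. C7, a component of the terminal complement complex, was called by voom, with a lower level in Mc4r KO hearts and a log2 fold change by limma of -1.10 (adjusted p = 0.0579). Without WT replicate 3, limma called C7 and C4b, in a fit that called 726 of 17966 genes tested. The log2 fold change of C4b was then 1.09, but C4b shares 34.6% of its 50-base stretches with C4a. The C1r and C1s genes that complete the C1 complex with C1q were not called.

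The likeness of P2ry12 to the other markers over the libraries was uneven. Its Pearson correlation over the 6 libraries, on log2(FPKM + 0.1), was 0.86 with Mrc1, 0.78 with Cd68, 0.73 with Csf1r, 0.01 with Adgre1 and -0.65 with C1qa. Mrc1, the closest of the 9 markers, had rank 738 of 11297 genes with a mean of at least 1 FPKM. The closest genes of all were Gm26795 (r = 0.998), Gphn, which encodes the synaptic anchor gephyrin (0.996), Pdp1, a phosphatase that activates pyruvate dehydrogenase (0.995), Gm20712 (0.995) and Zfp110 (0.994). All 5 were higher in each WT library, which follows from their likeness to P2ry12, itself chosen on this contrast, and is no separate result. Pdp1, for example, had 11.7, 9.61 and 10.6 FPKM in WT and 6.19, 5.74 and 7.22 FPKM in Mc4r KO replicates 1, 2 and 3. The 6 points are the same libraries for each gene and fall in 2 groups, so that such values describe these libraries alone.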

How the data were processed

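The labels and the methods of the study give 3 WT and 3 Mc4r KO hearts. The authors filtered the reads, aligned the pairs with HISAT2 2.0.5 to mm10, counted reads on genes with featureCounts and deposited FPKM per gene and library, with the gene length. Which annotation release was used, and whether counting was by strand, is not given in the sources used here. In each library, deposited FPKM multiplied by length and divided by the value of 1 read came out whole for 100% of values (tolerance 0.02), and median-of-ratios factors were equal in all libraries. Of the gene IDs, 99.8% matched GENCODE M21, which gave GC content, exon overlap and shared stretches of 50 bases.

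Tests used the genes whose mean FPKM reached 0.1 and limma 3.58.1 in R 4.3.3 on log2(FPKM + 0.1), with the empirical Bayes trend, 6 libraries, no covariate, two-sided p-values and Benjamini-Hochberg adjustment across the tested genes. Calls were set at an adjusted p below 0.05 with a log2 fold change beyond 0.75 in size. The fit was tested on simulated data. Count tests were not run as the main test because the unit is FPKM; limma voom on the recovered reads was an alternative.

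The markers and the 18 gene lists were chosen with earlier results of these data known. Named genes are the markers, called list genes, the lowest and highest fold change of each list, genes within 250 kb of P2ry12 and its 5 closest genes. The text says where another gene was picked by its values. Single results for a few list genes are left out. Ccl21a has more than 1 gene ID in the table and was left out. The GC trend was removed by lowess with a span of 0.3, an alternative chosen after seeing the data. Mice are separate animals, and p-values measure the spread between them. Figures were drawn with matplotlib 3.10.9.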

Additional observations from a re-analysis of the deposited data

How the results depend on the processing

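Over 20 alternatives, none of the pan-macrophage genes was called, and of the 9 markers other than P2ry12 the number called was 0 in each but one. It was 0 to 1 when each library was left out in turn, with C1qa called without WT replicate 3. P2ry12 had a negative log2 fold change in the 19 alternatives that held it, and a mean FPKM of at least 1 left it out. It ran from -1.58 with a pseudocount of 0.01 to -0.68 with a pseudocount of 1, which weighs down genes near 1 FPKM. Since P2ry12 was chosen for its lower level in these same libraries, its sign in these fits is a description and no separate evidence. Csf1r ran from -0.58 to -0.27, Cd68 from -0.62 to -0.30 and Mrc1 from -0.59 to -0.27, and all stayed short of the call. With the mitochondrial share as a covariate the sign turned for C1qa (-0.31), C1qb (-0.31), C1qc (-0.39), Lyve1 (-0.10) and Cd163 (-0.050). With each library left out Lyve1 ran from -0.074, without WT replicate 2, to 0.26. It also turned when libraries were scaled to their nuclear sum (-0.058), a scaling that moves the median of all genes to -0.19, so that relative to it Lyve1 stayed positive. Adgre1 turned with array weights (0.053), and with each library left out it ran from -0.21 to 0.13, positive without WT replicate 3 (0.08) or Mc4r KO replicate 3. The cause of these turns was not tested. The number of calls over all genes, 83, was 44 with a pseudocount of 1, 10 with no filter, 147 with a mean FPKM of at least 1, 41 with scaling to the nuclear sum, 49 with quantile normalization, 21 without trend, 435 with array weights, 0 with the mitochondrial share as a covariate (1891 at an unadjusted p under 0.05), 317 with voom, 204 with protein-coding genes only and 65 with the GC trend removed. It ran from 7 to 726 when each library was left out, with 726 without WT replicate 3 and at most 14 otherwise. The replicate block gave 11 calls and none among the 9 markers. Libraries of the same number did not deviate together (r = -0.14, 0.01 and -0.08 over 11297 genes). The labels do not say whether the numbers pair the mice, and these correlations cannot decide it. With 14 to 55 reads, counting error is a large part of the spread of P2ry12.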

Other observations

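Lists of other cells and of macrophage functions gave these values, with no gene called by limma in any of them. Of 170 list genes tested in all, 37 had an unadjusted p under 0.05, beside 3761 of 18035 over all genes tested, and voom called 4. Among 16 growth factor and transcription factor genes of macrophages the median log2 fold change was -0.02. The lowest was Nr4a1, a nuclear receptor gene induced early by stimulation, at -0.59 (limma, adjusted p = 0.133), and the highest Cebpb, a transcription factor gene of inflammatory and adipose cells. Cebpb had 15.0, 18.8 and 42.0 FPKM in WT and 33.2, 29.3 and 31.9 FPKM in Mc4r KO replicates 1, 2 and 3 (log2 fold change 0.46, adjusted p = 0.496), with WT replicate 3 above the Mc4r KO libraries as for C1qb and C1qc. It was called without WT replicate 3, at 0.90 (adjusted p = 0.0135), in the fit that called 726 of 17966 genes tested. Exons of Tmem189 on the other strand cover 20.7% of its exonic bases. Among 15 tested genes of scavenging and haemoglobin uptake the median was -0.10, between Timd4 at -0.80 (adjusted p = 0.365) and Axl at 0.20 (adjusted p = 0.386), both receptors for phosphatidylserine on dying cells, Axl through Gas6.

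Neutrophil genes had a median of -1.13 over 6 tested, between Retnlg (-2.00) and Csf3r (-0.49), and their sum was 7.24, 2.33 and 17.3 FPKM in WT and 3.74, 2.04 and 2.03 FPKM in Mc4r KO replicates 1, 2 and 3. B cell genes had a median of -1.41 over 4 tested, between Cd79b (-1.75, adjusted p = 0.104) and Ms4a1 (-1.05), with sums of 2.65, 1.22 and 3.00 FPKM in WT and 0.437, 0.609 and 0.590 FPKM in Mc4r KO. T and NK cell genes had a median of 0.35, between Lck (-0.24) and Cd4 (0.74), mast cell genes one of 0.45, between Mcpt4 (0.01) and Tpsb2 (1.15), and dendritic cell genes one of 0.08, between Batf3 (-0.62) and Clec9a (0.55). Lymphatic genes had a median of 0.15, between Prox1 (-0.42) and Mmrn1 (0.47). Red cell genes had a median of -1.64, between Alas2 (-2.31) and Hbb-bt (-1.52). Atrial genes had one of -2.31, between Sln (-3.11, SE 2.63, adjusted p by limma 0.544) and Nppa (-1.53, SE 1.17, adjusted p by limma 0.505). The atrial sum was 28.6, 95.2 and 747 FPKM in WT and 136, 6.29 and 43.7 FPKM in Mc4r KO replicates 1, 2 and 3. The groups overlapped, and WT replicate 3 was far above the rest. Cardiomyocyte genes had a median of 0.14, between Pln (-0.33) and Actc1 (0.54), and a sum of 12271 to 16379 FPKM, so the defining markers of the labelled tissue were present in every library.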
